A study of Mus musculus with 12 samples.

Results

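Endothelial genes were examined in bulk Rd76-9 tumors, as 32 genes of the 38894 genes to which the measured transcripts belong. The members were chosen with earlier results of these data known. They were taken as a fixed list of genes with known use as endothelial markers or known roles in vessels. Of these, 29 were general endothelial genes and 3 (*Apln*, *Esm1* and *Dll4*) mark tip cells and sprouting.

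Rd76-9 is a mouse rhabdomyosarcoma cell line, a cancer with features of skeletal muscle, and its cells were injected into the flank of adult wild-type (WT) C57/Bl6J mice. The 12 tumors were dissected on day 16 and fell into 4 groups of 3. Vehicle-treated mice (tumors m1, m2 and m3) received saline and the empty folic acid nanoparticle. VCR-treated mice (m4, m5 and m6) received vincristine, a drug that blocks microtubule assembly, at 0.25 mg/kg each week. RCM1-NPFA-treated mice (m7, m8 and m9) received 8 µg per injection of RCM1, an inhibitor of the transcription factor FOXM1, in the folic acid nanoparticle every other day, and the combination group (m10, m11 and m12) received both drugs at these doses. The treatment label of the vehicle-treated tumors also names the RCM1 nanoparticle, while their titles call them control, and they were grouped by title. The model is 1 transplanted cell line, so vessels come from the host. Each tumor has its own number, and the p-values below measure the spread between these tumors, which may be technical where tumors were not from separate mice.

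Blood vessels are lined by endothelial cells. VEGF-A binds VEGFR2 (*Kdr*) on these cells and drives growth of new vessels, while VEGFR1 (*Flt1*), also made as a short secreted form, binds the ligand and limits its supply. In a growing sprout the leading tip cell makes DLL4, which activates Notch receptors on its neighbors and holds them in the stalk, and tip cells are rich in apelin (*Apln*) and endocan (*Esm1*). ETS factors such as ERG and the SOX factors SOX7, SOX17 and SOX18 maintain endothelial identity, and the angiopoietin receptor TIE2 (*Tek*) with its partner TIE1 supports vessel stability.

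The libraries held 29342195 to 32108055 estimated counts. All 32 members passed the filter on low counts, with 36 (*Aplnr* in m3) to 4839 (*Apln* in m3) rounded counts per tumor. The endothelial markers *Pecam1* and *Cdh5* were detected in every tumor, at 18.9 to 31.6 TPM (a level scaled to transcript length and library depth) and 21.1 to 34.6 TPM. Other tissue differed between libraries. The summed level of 14 adult muscle fibre genes was 48.0 to 163 CPM (counts scaled to library size) in the vehicle-treated tumors and reached 11902 CPM in m5 and 18387 CPM in m9. Transcripts of 4 Y-linked genes were present in 7 tumors, 1 of the vehicle-treated tumors (m3) and 2 in each other group. The study gives the cell line as derived from a female mouse, so these transcripts would come from male host cells.

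For 18 of the members RefSeq promoter windows were at hand, and 5 are shown because they belong to members on both sides of the comparison, 3 general genes that rose after VCR (*Egfl7*, *Rasip1* and *Tie1*) and the tip genes *Apln* and *Esm1*, chosen after their values were seen. Each run is the 250 bases before the transcription start, read 5′ to 3′ along the gene's strand in GRCm38.p6. Capitals mark letters of ETS motifs (CAGGAAG or CCGGAAG), of the RBPJ motif of Notch signalling (TGGGAA) and of the hypoxia response motif (ACGTG), searched on both strands, so a match on the other strand appears as its reverse complement.
Egfl7 promoter, chr2:26580833-26581082 (plus strand): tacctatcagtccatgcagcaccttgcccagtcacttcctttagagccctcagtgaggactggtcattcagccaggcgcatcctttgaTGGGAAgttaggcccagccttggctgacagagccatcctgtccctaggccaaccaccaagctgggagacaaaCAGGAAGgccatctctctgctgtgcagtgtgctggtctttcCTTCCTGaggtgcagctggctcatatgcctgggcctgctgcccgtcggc
Rasip1 promoter, chr7:45627287-45627536 (plus strand): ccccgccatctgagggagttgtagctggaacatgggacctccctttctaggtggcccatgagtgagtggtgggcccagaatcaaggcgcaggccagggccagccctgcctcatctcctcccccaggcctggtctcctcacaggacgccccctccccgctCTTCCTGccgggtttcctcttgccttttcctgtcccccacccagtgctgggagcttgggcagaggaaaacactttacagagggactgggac
Tie1 promoter, chr4:118489850-118490099 (minus strand): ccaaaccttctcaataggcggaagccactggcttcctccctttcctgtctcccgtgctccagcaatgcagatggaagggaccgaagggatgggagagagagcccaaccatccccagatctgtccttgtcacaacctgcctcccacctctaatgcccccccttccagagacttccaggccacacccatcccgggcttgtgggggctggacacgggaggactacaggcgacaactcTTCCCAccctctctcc
Apln promoter, chrX:48034854-48035103 (minus strand): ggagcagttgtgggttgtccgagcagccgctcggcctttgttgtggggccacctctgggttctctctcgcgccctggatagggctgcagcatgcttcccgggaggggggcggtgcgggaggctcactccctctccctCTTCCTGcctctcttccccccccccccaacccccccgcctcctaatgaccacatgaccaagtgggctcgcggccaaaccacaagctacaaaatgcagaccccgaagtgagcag
Esm1 promoter, chr13:113209409-113209658 (plus strand): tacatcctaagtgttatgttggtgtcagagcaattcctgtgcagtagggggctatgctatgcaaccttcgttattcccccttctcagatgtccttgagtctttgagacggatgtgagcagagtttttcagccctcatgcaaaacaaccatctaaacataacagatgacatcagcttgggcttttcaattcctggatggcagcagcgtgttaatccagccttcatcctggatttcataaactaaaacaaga
The *Egfl7* window shown held 2 ETS matches, whose first bases lay 90 and 49 bases before the start, and 1 RBPJ match at 162 bases. *Rasip1* had an ETS match at 91 bases, *Tie1* an RBPJ match at 16 bases and *Apln* an ETS match at 113 bases, and none of these motifs was found in the *Esm1* window. Of windows not shown, those of *Eng* and *Myct1*, also called after VCR, held 0 matches and that of *Robo4* held 1. Further *Egfl7* windows held 1 and 0. Shares over all promoters were read in the same 250 bases before the start. Among all 32851 promoter windows 17.0% held an ETS match, 21.6% an RBPJ match and 16.6% a hypoxia response match. Of the 22 member windows 9, 4 and 1 did. SOX letters (ACAATG or ACAAAG) were in 6 member windows and in 25.2% of all windows, and the combined FOX and ETS motif (AACAGGAA) was in 2 and in 2.25%. A match is a run of letters and not a measured site.

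Before treatment effects, the levels of the members set an order. In vehicle-treated tumors the highest means were those of *Cd34*, a surface sialomucin that stromal and progenitor cells also carry, at 67.4 ± 5.74 TPM, of *Apln* at 62.8 ± 19.2 TPM and of *Esm1* at 51.2 ± 12.3 TPM. Next came *Plvap*, the protein of capillary fenestral diaphragms, at 34.9 ± 10.2 TPM, and *Gpihbp1*, which holds lipoprotein lipase on the capillary wall, at 28.7 ± 7.11 TPM. The SDs of *Cd34*, *Apln* and *Esm1* overlapped, so their order is not fixed by 3 tumors. The lowest were *Clec14a* at 0.569 ± 0.180 TPM, *Tek* at 1.06 ± 0.494 TPM and *Ptprb* at 1.09 ± 0.245 TPM. *Apln* and *Esm1*, listed as tip genes, were thus above *Cdh5* at 24.7 ± 3.57 TPM and *Pecam1* at 21.4 ± 3.72 TPM. Which cells of the tumor made the *Apln* and *Esm1* transcripts was not tested. *Dll4* at 7.13 ± 1.03 TPM was near *Robo4* at 6.27 ± 0.948 TPM.

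**Figure D1:**
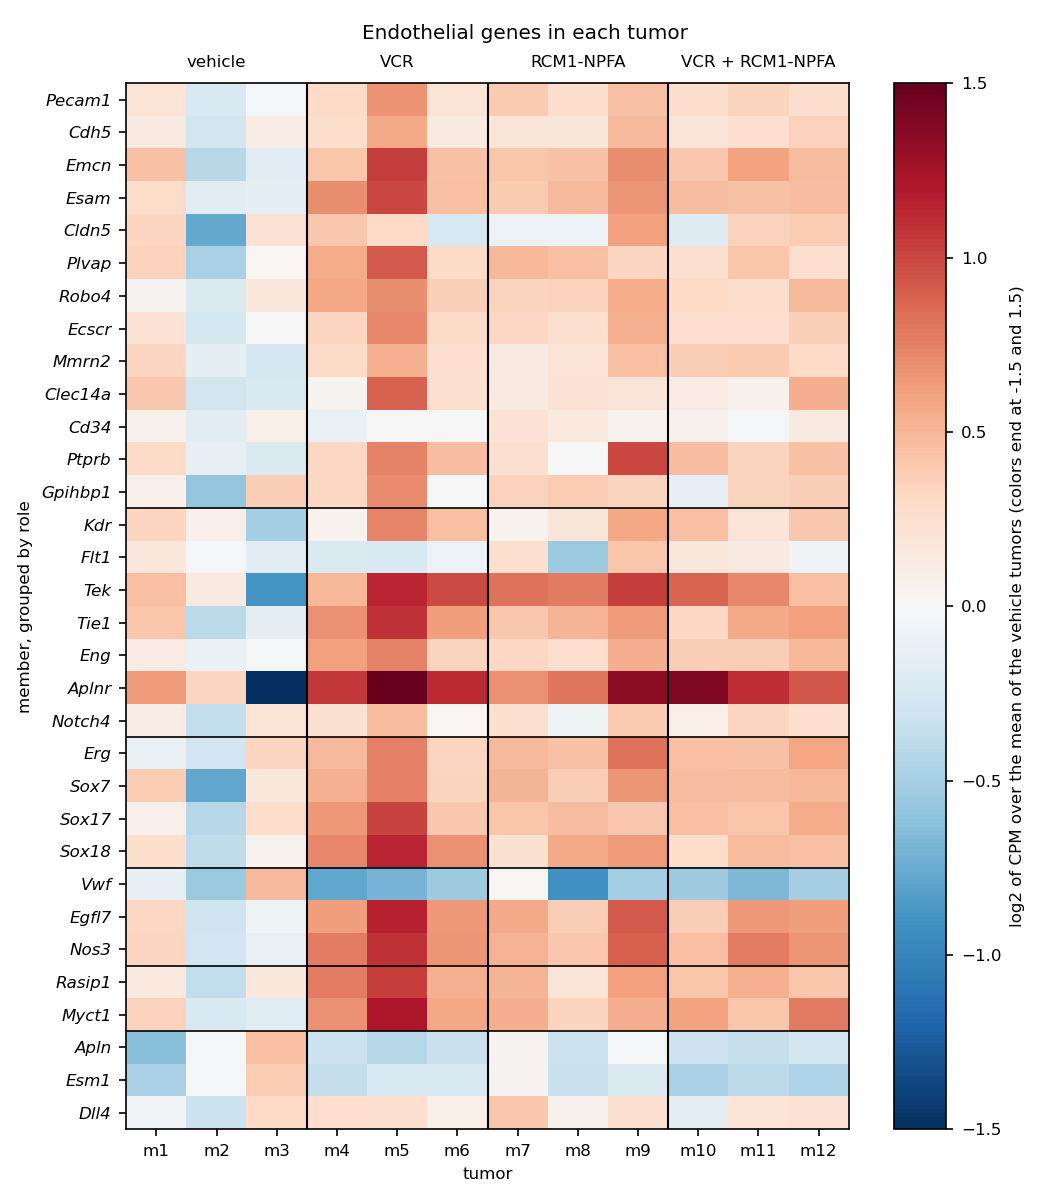
Each row is a member, each column a tumor, and the color is log2 of its CPM over the mean of the vehicle-treated tumors, with colors ending at -1.5 and 1.5 and horizontal lines between roles (junction and surface, receptors, transcription factors, secreted proteins and enzymes, signalling, tip ligands). Among vehicle-treated tumors m2 and m3 are pale or blue for most members and m1 is redder, and m5 and m9 are the reddest columns.

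To determine whether treatment changed endothelial transcripts, each treated group was compared with the vehicle-treated tumors. After VCR, 10 of the 32 members were higher and 0 were lower at an adjusted p under 0.1, the threshold of the study's methods (edgeR quasi-likelihood F test over 17599 genes). The genes that rose were *Esam*, *Robo4*, *Eng*, *Tie1*, *Sox17*, *Sox18*, *Nos3*, *Egfl7*, *Rasip1* and *Myct1*, with folds of 1.47 (*Robo4*) to 1.82 (*Sox18*). All 10 were general genes, and 0 of the 3 tip and sprouting genes passed. Of all genes tested, 491 (2.79%) were called higher and 484 lower. The median member was 0.53 higher on the log2 scale, against 0.0017 for all genes, and 27 of the 32 were above 0. At an unadjusted p under 0.05, 20 members were higher (background 11.7%) and 1 was lower. Over all genes 3890 had such a p in either direction, and 2059 of them were higher. In 14 members every VCR-treated tumor was above every vehicle-treated tumor in CPM (background 13.5%). DESeq2 called 16 members higher (background 7.21%) and 1, *Vwf*, lower (background 7.13%). In a bulk tumor more endothelial cells and more RNA of a gene per cell cannot be told apart. The study stained tumor sections for CD31, the protein of *Pecam1*. It reported no effect of either single drug at these doses on vessels, and fewer vessels after the combination than after vehicle. Stained protein and bulk RNA are different measures, and their relation was not tested here.

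The call after VCR depended on single tumors. Without m2, m4 or m5, 0 members and 0 of all genes passed, and without m11 0 members and 1 gene. Without m12 6 members and 243 genes passed, and without m6 13 members and 1998 genes. The 21 members at an unadjusted p under 0.05 were 26 without m1, 14 without m2 and 13 without m5. Over all genes the same counts were 3890 with all tumors and then 3436, 3141 and 2153. The median was 0.63 without m1, 0.40 without m2 and 0.40 without m5. With the summed muscle fibre CPM as a term 0 members passed (1 gene in all), 1 had an unadjusted p under 0.05 and the median was 0.26. This sum was 48.0 to 163 CPM in vehicle-treated and 1665 to 11902 CPM in VCR-treated tumors. The term and the VCR treatment therefore cannot be told apart. With a term for Y-linked transcripts 7 members and 376 of all genes passed, and the median member was at 0.53.

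**Figure D2:**
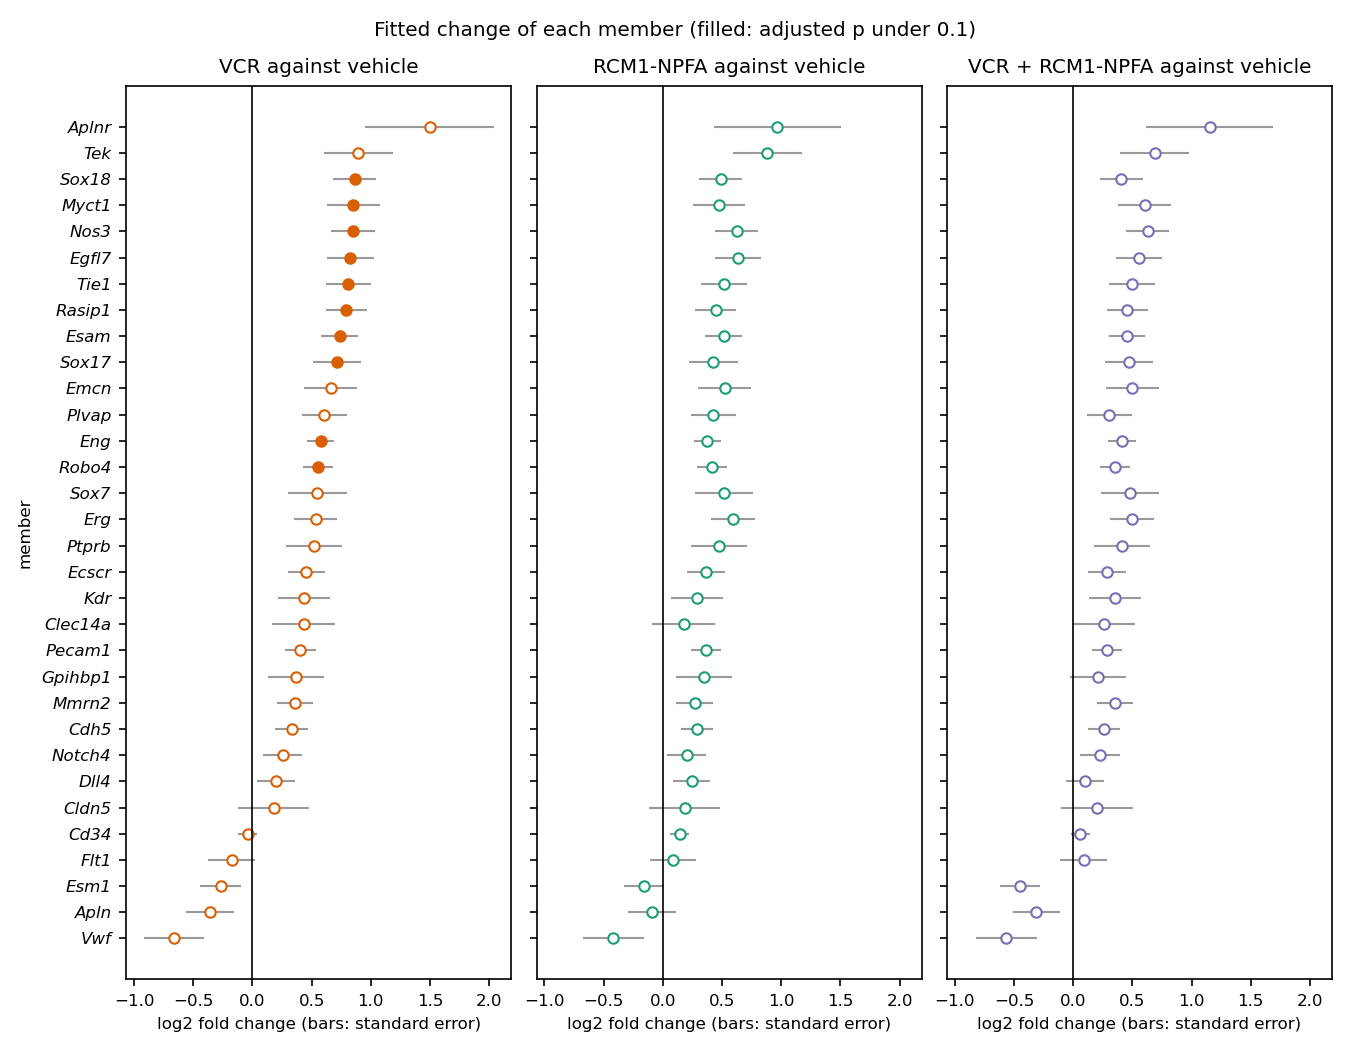
Points are the fitted log2 fold changes of the 32 members in each treated group against vehicle, bars are standard errors, and filled points passed an adjusted p of 0.1. The 10 filled points are in the VCR panel; Aplnr and Tek lie farthest right in all 3 panels and Vwf farthest left in the VCR panel.

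Junction and surface genes. *Pecam1*, an adhesion molecule (CD31) of endothelial junctions, was at 25.7, 18.9 and 19.5 TPM in vehicle-treated tumors, 25.3, 31.6 and 24.5 after VCR, 27.9, 24.7 and 28.8 after RCM1-NPFA and 26.9, 27.2 and 25.0 after the combination. Vehicle-treated tumor m1 lay within the VCR values, and the difference after VCR was 0.40 on the log2 scale (SE 0.129, adjusted p = 0.114). Without m5 it was 0.25, and with the muscle fibre term it was 0.17. *Cdh5*, the cadherin of endothelial adherens junctions, was at 28.3, 21.1 and 24.8 TPM in vehicle-treated tumors, 28.3, 33.4 and 27.3 after VCR, 27.8, 27.0 and 34.6 after RCM1-NPFA and 29.8, 29.8 and 30.3 after the combination. Its VCR and vehicle values overlapped, with a difference of 0.33 on the log2 scale (SE 0.135, adjusted p = 0.185). Without m2 it was 0.19, and with the muscle fibre term it was 0.048. *Esam*, an adhesion molecule of endothelial tight junctions, was at 16.6, 12.1 and 11.03 TPM in vehicle-treated tumors, 20.2, 24.0 and 18.1 after VCR, 17.0, 17.6 and 20.7 after RCM1-NPFA and 18.9, 18.0 and 17.6 after the combination. All 9 treated tumors were above m1, the highest vehicle-treated tumor, and the rise after VCR was 0.74 on the log2 scale (SE 0.154, adjusted p = 0.0694). *Robo4*, an endothelial receptor of the roundabout family that stabilizes vessels, was at 7.26, 5.37 and 6.18 TPM in vehicle-treated tumors, 9.25, 10.1 and 8.17 after VCR, 7.63, 8.57 and 9.40 after RCM1-NPFA and 7.74, 8.05 and 8.90 after the combination. Again no treated tumor reached down to the vehicle values, and the rise after VCR was 0.55 on the log2 scale (SE 0.128, adjusted p = 0.0753). Of the 13 junction and surface genes 2 passed after VCR, 12 were above 0 and the range was -0.04 (*Cd34*) to 0.74. Those outside the test threshold and not described above, *Emcn*, *Cldn5*, *Plvap*, *Ecscr*, *Mmrn2*, *Clec14a*, *Cd34*, *Ptprb* and *Gpihbp1*, ran from -0.04 to 0.66.

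Receptors. *Eng* (endoglin), a co-receptor for TGF-β and BMP ligands, was at 17.4, 14.9 and 14.1 TPM in vehicle-treated tumors, 22.5, 23.6 and 19.7 after VCR, 18.9, 17.7 and 22.7 after RCM1-NPFA and 20.9, 20.2 and 21.2 after the combination. The VCR values were all above the vehicle values, and the rise was 0.58 on the log2 scale (SE 0.115, adjusted p = 0.0688), the smallest adjusted p among the members. *Tie1*, the partner of the angiopoietin receptor, was at 10.5, 5.91 and 6.33 TPM in vehicle-treated tumors, 11.6, 14.5 and 11.7 after VCR, 9.83, 10.3 and 11.7 after RCM1-NPFA and 9.78, 11.3 and 11.2 after the combination. Tumor m1 was within the RCM1-NPFA and combination values but below all VCR values, and the rise after VCR was 0.81 on the log2 scale (SE 0.193, adjusted p = 0.0766). *Tek*, the angiopoietin receptor TIE2, was at 1.48, 1.18 and 0.519 TPM in vehicle-treated tumors, 1.40, 2.10 and 2.08 after VCR, 1.82, 1.72 and 2.15 after RCM1-NPFA and 2.003, 1.74 and 1.38 after the combination, the low value being that of m3. On the count scale of the fit its VCR tumors did not overlap the vehicle-treated tumors, and the difference was 0.90 on the log2 scale (SE 0.293, adjusted p = 0.119). Without m3 it was 0.60. *Aplnr*, the apelin receptor, was at 4.84, 3.91 and 0.529 TPM in vehicle-treated tumors, 5.98, 11.6 and 6.54 after VCR, 4.79, 5.01 and 7.58 after RCM1-NPFA and 8.29, 6.53 and 5.52 after the combination. Its level in m3 was far below that of m1 and m2. The difference of 1.496 on the log2 scale (SE 0.543, adjusted p = 0.147) was the largest of the members and did not pass. Without m3 it was 1.01, and with the muscle fibre term it was 0.63. The VEGF receptors differed by less and did not pass. *Kdr* was at 6.94, 5.81 and 3.34 TPM in vehicle-treated tumors, 5.10, 7.79 and 7.04 after VCR, 5.29, 5.60 and 7.68 after RCM1-NPFA and 7.37, 5.99 and 6.57 after the combination, with a difference after VCR of 0.43 on the log2 scale (SE 0.220, adjusted p = 0.268). Without m3 it was 0.23, and with the muscle fibre term it was 0.021. *Flt1* was at 8.95, 7.66 and 6.26 TPM in vehicle-treated tumors, 6.04, 5.67 and 6.96 after VCR, 8.60, 4.79 and 9.76 after RCM1-NPFA and 8.73, 8.29 and 6.85 after the combination, with a difference of -0.18 on the log2 scale (SE 0.197, adjusted p = 0.640). Without m1 it was -0.086, and with the muscle fibre term it was -0.54. Both receptors overlapped between the groups. Of the 7 receptors 2 passed after VCR, and the remaining one, *Notch4*, a Notch receptor of endothelium, was 0.25 higher without passing.

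Transcription factors. *Sox18* was at 12.4, 7.92 and 9.58 TPM in vehicle-treated tumors, 15.6, 19.9 and 16.1 after VCR, 11.6, 14.2 and 15.5 after RCM1-NPFA and 12.7, 14.1 and 13.2 after the combination. The VCR tumors were the highest of all, with m9 just below them, and the rise was 0.86 on the log2 scale (SE 0.183, adjusted p = 0.0700). *Sox17* was at 1.33, 0.886 and 1.29 TPM in vehicle-treated tumors, 1.73, 2.22 and 1.57 after VCR, 1.55, 1.52 and 1.55 after RCM1-NPFA and 1.64, 1.54 and 1.65 after the combination. The rise after VCR was 0.71 on the log2 scale (SE 0.205, adjusted p = 0.0977), close to the threshold. *Sox7* and *Erg*, at 0.55 and 0.53, had unadjusted p-values under 0.05 and did not pass, so 2 of the 4 factors were called and all 4 were above 0.

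Secreted proteins, enzymes and signalling genes. *Nos3*, the endothelial nitric oxide synthase, was at 5.82, 3.83 and 3.86 TPM in vehicle-treated tumors, 7.27, 8.62 and 7.14 after VCR, 6.35, 5.69 and 8.34 after RCM1-NPFA and 6.42, 7.68 and 6.85 after the combination. In TPM the highest vehicle value, that of m1, was above the lowest RCM1-NPFA value and below all VCR values. In CPM, the scale of the fit, m1 at 13.9 was below the lowest RCM1-NPFA value, 14.7 in m8. The rise after VCR was 0.85 on the log2 scale (SE 0.184, adjusted p = 0.0712). *Egfl7*, a secreted matrix protein of endothelium, was at 27.8, 18.8 and 20.1 TPM in vehicle-treated tumors, 32.8, 44.2 and 35.1 after VCR, 32.5, 26.9 and 41.8 after RCM1-NPFA and 30.6, 35.7 and 33.9 after the combination. VCR tumors did not overlap the vehicle tumors, and the rise was 0.83 on the log2 scale (SE 0.195, adjusted p = 0.0761). *Rasip1*, a RAS-interacting protein needed for lumen formation, was at 6.61, 4.62 and 5.96 TPM in vehicle-treated tumors, 9.33, 10.7 and 8.33 after VCR, 8.08, 6.29 and 8.77 after RCM1-NPFA and 8.06, 8.41 and 7.45 after the combination and rose after VCR by 0.79 on the log2 scale (SE 0.172, adjusted p = 0.0712). *Myct1*, an endothelial membrane protein, was at 1.88, 1.26 and 1.17 TPM in vehicle-treated tumors, 2.18, 3.02 and 2.14 after VCR, 2.06, 1.72 and 2.08 after RCM1-NPFA and 2.27, 1.92 and 2.37 after the combination and rose by 0.85 on the log2 scale (SE 0.222, adjusted p = 0.0856). *Vwf* (von Willebrand factor), which platelets and their precursors also hold, differed in the other direction. It was at 4.23, 3.14 and 5.90 TPM in vehicle-treated tumors, 2.54, 2.59 and 3.15 after VCR, 4.48, 2.32 and 3.15 after RCM1-NPFA and 3.25, 2.83 and 3.09 after the combination. The highest VCR value was level with the lowest vehicle value, that of m2, and the difference after VCR of -0.66 on the log2 scale (SE 0.257, adjusted p = 0.167) did not pass in edgeR. Without m3 it was -0.34, and with the muscle fibre term it was -0.45.

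**Figure D3:**
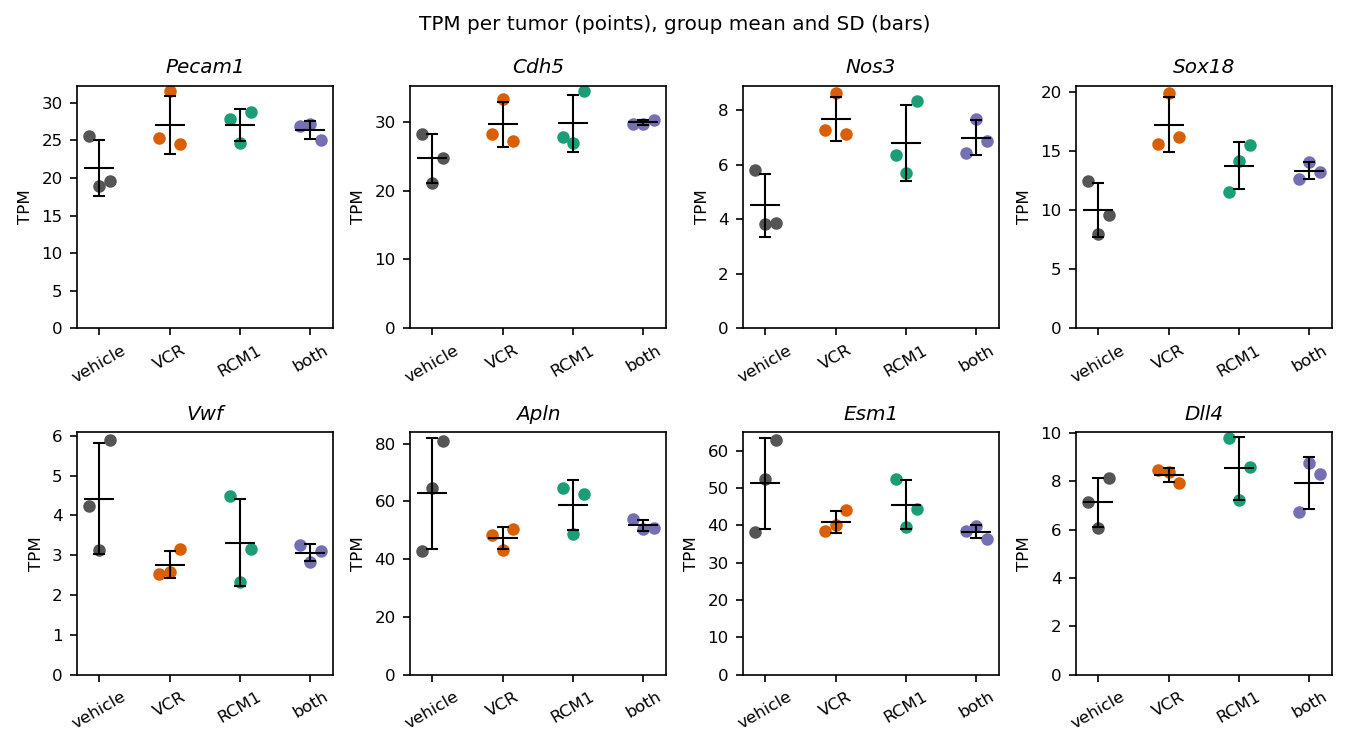
TPM of 8 members in each tumor (points), with the group mean and SD (horizontal and vertical bars), for vehicle, VCR, RCM1-NPFA (RCM1) and the combination (both). Nos3 and Sox18 show separate vehicle and VCR points, Apln and Esm1 spread widely among vehicle-treated tumors, and Dll4 overlaps in all groups.

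Tip and sprouting genes. *Apln*, the apelin ligand, was at 42.7, 64.7 and 80.9 TPM in vehicle-treated tumors, 48.5, 43.1 and 50.6 after VCR, 64.6, 48.9 and 62.7 after RCM1-NPFA and 54.0, 50.5 and 50.8 after the combination. The vehicle-treated tumors spanned all other tumors, with m1 the lowest and m3 the highest of the 12, and the difference after VCR was -0.36 on the log2 scale (SE 0.201, adjusted p = 0.311). It was -0.60 without m1 and -0.066 without m3. *Esm1*, the endocan proteoglycan of tip cells, was at 38.3, 52.5 and 62.9 TPM in vehicle-treated tumors, 38.6, 40.2 and 44.3 after VCR, 52.5, 39.5 and 44.5 after RCM1-NPFA and 38.6, 39.8 and 36.4 after the combination, with the same tumor m3 highest and a difference of -0.27 on the log2 scale (SE 0.171, adjusted p = 0.378). It was -0.46 without m1 and -0.029 without m3. *Dll4* was at 7.16, 6.09 and 8.14 TPM in vehicle-treated tumors, 8.47, 8.38 and 7.92 after VCR, 9.81, 7.22 and 8.59 after RCM1-NPFA and 6.74, 8.77 and 8.32 after the combination. It overlapped between all groups, and its difference after VCR was 0.20 on the log2 scale (SE 0.159, adjusted p = 0.496). It was 0.047 without m2 and 0.37 without m3. None of the 3 passed in any comparison by edgeR or DESeq2.

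The direct comparison of the 2 classes was made within each tumor as the mean log2(TPM + 0.1) of the 3 tip and sprouting genes minus that of the 29 general genes. It was 1.51, 2.29 and 2.59 in m1, m2 and m3, 1.61, 1.28 and 1.65 after VCR, 1.98, 1.69 and 1.59 after RCM1-NPFA and 1.51, 1.61 and 1.57 after the combination. The group means were 2.13 ± 0.56 (SD, n = 3) in vehicle, 1.52 ± 0.20 after VCR, 1.75 ± 0.20 after RCM1-NPFA and 1.56 ± 0.051 after the combination. The difference from vehicle was -0.62 after VCR, -0.38 after RCM1-NPFA and -0.57 after the combination, against a pooled SD between tumors of 0.32. After VCR it consisted of a difference of 0.47 in the general genes and -0.15 in the tip and sprouting genes. Tumor m1 lay among the treated tumors, so the groups overlapped, and no test was made of this score. The score does not tell which cells of the tumor made the transcripts. The differences after VCR, RCM1-NPFA and the combination were -0.93, -0.69 and -0.88 without m1 and -0.39, -0.15 and -0.34 without m3.

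**Figure D4:**
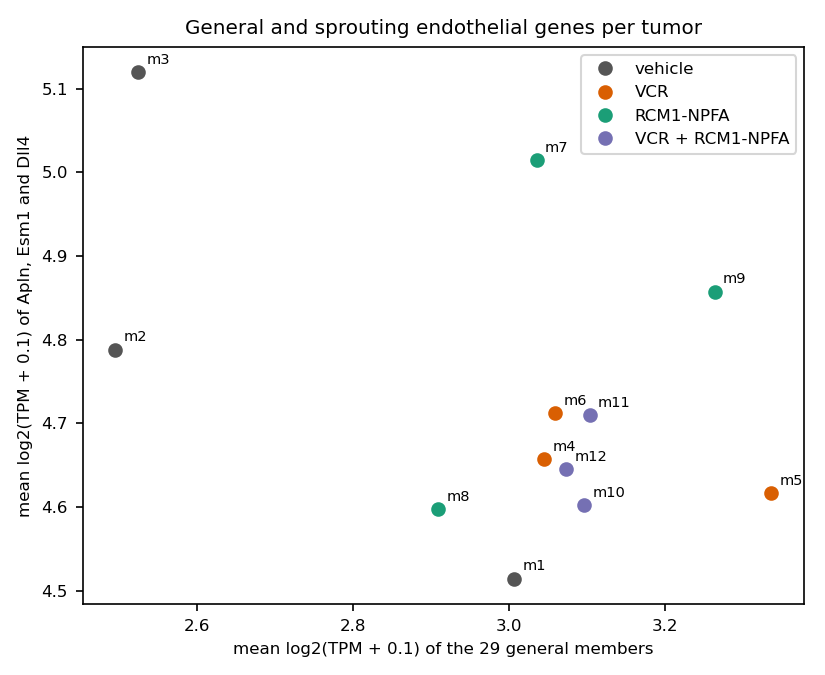
Each point is a tumor, with the mean log2(TPM + 0.1) of the 29 general genes on the horizontal axis and of Apln, Esm1 and Dll4 on the vertical axis, colored by group. Tumors m2 and m3 lie to the left of all others, and m1 lies near the treated tumors on the horizontal axis with the lowest vertical value.

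RCM1-NPFA against vehicle. No gene of the 17599 passed in edgeR (0%), and so 0 members did. At an unadjusted p under 0.05, 14 members were higher (background 5.34%) and 0 lower. The count was 8 without m2, 9 without m9, 22 without m1 and 0 with the muscle fibre term. Over all genes, in either direction, it was 1722 with all tumors and then 1369, 1074, 1589 and 940. In 13 members the groups did not overlap in CPM (background 5.56%), all higher after RCM1-NPFA. DESeq2 called *Egfl7*, *Esam* and *Nos3* higher (background 1.11%), and limma-voom called 0. The median member was 0.40 higher, with 29 of 32 above 0. The largest differences were those of *Aplnr* at 0.97 on the log2 scale (SE 0.539, adjusted p = 0.595), *Tek* at 0.88 on the log2 scale (SE 0.293, adjusted p = 0.422) and *Egfl7* at 0.64 on the log2 scale (SE 0.195, adjusted p = 0.419). Without m3 *Aplnr* was at 0.48 and *Tek* at 0.58. *Nos3*, *Esam*, *Robo4* and *Eng* were at 0.62, 0.51, 0.42 and 0.38. The lowest were *Vwf* at -0.42 on the log2 scale (SE 0.255, adjusted p = 0.635), *Esm1* at -0.16 on the log2 scale (SE 0.171, adjusted p = 0.807) and *Apln* at -0.09 on the log2 scale (SE 0.201, adjusted p = 0.926). Without m3 these were at -0.090, 0.080 and 0.20. Tumor m9, with the highest muscle fibre sum, held the highest value of 9 members, and without it the median was 0.33. Without m2 the median was 0.25. With the muscle fibre sum as a term the median was 0.26.

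VCR + RCM1-NPFA against vehicle. Again no gene passed in edgeR (0%). At an unadjusted p under 0.05, 15 members were higher (background 3.81%) and 2, *Esm1* and *Vwf*, were lower (background 3.49%). The count of both directions, 17, was 22 without m1 and 4 without m2. It was 6 without m12, 7 without m11, 8 without m3, 9 without m10 and 0 with the muscle fibre term. Over all genes the count was 1285 with all tumors, 1829 without m1 and 1100 without m2. With m12, m11, m3 or m10 left out it was 967, 771, 1403 and 1542, and with the muscle fibre term 649. All 3 combination tumors were above all vehicle-treated tumors in CPM in 16 members (background 7.1%). DESeq2 called 0 members with all tumors in the fit (background 0.362%), and with only these groups it called *Eng* and *Nos3* higher (background 1.15%); limma-voom called 0. The median member was 0.35 higher and 29 of 32 were above 0. Largest were *Aplnr* at 1.15 on the log2 scale (SE 0.540, adjusted p = 0.692), *Tek* at 0.69 on the log2 scale (SE 0.293, adjusted p = 0.682) and *Nos3* at 0.63 on the log2 scale (SE 0.184, adjusted p = 0.668), followed by *Myct1* at 0.60 and *Egfl7* at 0.55. Without m3 *Aplnr* was at 0.66 and *Tek* at 0.39. Lowest were *Vwf* at -0.56 on the log2 scale (SE 0.256, adjusted p = 0.682), *Esm1* at -0.45 on the log2 scale (SE 0.171, adjusted p = 0.671) and *Apln* at -0.31 on the log2 scale (SE 0.201, adjusted p = 0.752). Without m3 these were at -0.24, -0.21 and -0.015. The 3 combination tumors were close to each other, with *Cdh5* at 29.8, 29.8 and 30.3 TPM. With the muscle fibre sum as a term the median was 0.16. That sum was 460 CPM or more in combination tumors and at most 163 CPM in vehicle-treated tumors, so term and treatment cannot be told apart.

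The comparisons with vehicle share the same 3 control tumors, so their changes are not independent. For *Nos3* the differences after VCR, RCM1-NPFA and both were 0.85, 0.62 and 0.63. For *Sox18* they were 0.86, 0.49 and 0.41, and for *Pecam1* 0.40, 0.36 and 0.29. For *Vwf* they were -0.66, -0.42 and -0.56. Among all tumors, m2 held the lowest value of 18 members and m3 of 9, while m5 held the highest value of 18.

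The combination against each drug alone asked whether both drugs together differed from a single drug. Against VCR 0 members passed in edgeR and in DESeq2 (of all genes 0% in edgeR), and the median member was 0.16 lower, or 0.02 higher without m5 and 0.10 lower with the muscle fibre term. At an unadjusted p under 0.05 there was 1 member (background 5.26%), *Sox18*, at a log2 difference of -0.46 (SE 0.181). Against RCM1-NPFA 0 members passed in edgeR and DESeq2 (of all genes 0% in edgeR), 0 had an unadjusted p under 0.05 (background 2.07%) and the median was -0.05, or 0.03 without m9 and -0.08 with the muscle fibre term. Standard errors of 0.080 (*Cd34*) to 0.53 (*Aplnr*) mean that small differences could not be seen. In the interaction of the drugs, the change after both minus the sum of the single changes, 0 members passed in edgeR (of all genes 0%). At an unadjusted p under 0.05, 15 members were lower (background 7.27%), the median was -0.56, and DESeq2 called 8 lower (background 1.68%), namely *Egfl7*, *Eng*, *Esam*, *Nos3*, *Rasip1*, *Robo4*, *Sox18* and *Tie1*. With the muscle fibre term 3 members had an unadjusted p under 0.05 and the median was -0.33, and without m5 there were 8. Over all genes, in either direction, this count was 2437 with all tumors, 1322 with that term and 1494 without m5. For *Sox18* the interaction was -0.95 (SE 0.257, adjusted p = 0.293).

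Most members were related to *Cdh5* across tumors. Pearson's r of log2 CPM with *Cdh5* was above 0.5 in 25 of the other 31 members and in 17.4% of all other genes tested. Of 31 relations of log2 CPM with *Cdh5* over the 12 tumors, 24 were positive at an adjusted permutation p under 0.1, 0 were negative at that threshold, and r was above 0.5 in 18 of these 24 without m2 and m5, the tumors farthest from the median of *Cdh5*. By Pearson's r the most alike was *Ecscr* (r = 0.96, adjusted p = 0.000155, Spearman's rho = 0.89, adjusted p = 0.00205, r = 0.84 without m2 and m5). Next was *Pecam1* (r = 0.92, adjusted p = 0.000551, rho = 0.89, adjusted p = 0.00205, r = 0.69 without m2 and m5). Within groups, as deviations from the group means, r of *Ecscr* and *Pecam1* was 0.95 and 0.86. By rho *Eng* and *Sox7* were highest, both at 0.94 (adjusted permutation p = 0.000310 and 0.000620). The 7 members whose r with *Cdh5* did not pass were *Flt1*, *Tek*, *Vwf*, *Cd34*, *Apln*, *Aplnr* and *Esm1*. For *Apln* r was -0.25 (adjusted p = 0.426) and rho -0.21 (adjusted p = 0.549), and for *Vwf* r was -0.21 (adjusted p = 0.482) and rho -0.25 (adjusted p = 0.474).

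The members were also compared with a list of hypoxia-responsive genes. This comparison was chosen after the values were seen. The summed level of 10 such genes was 967, 1214 and 1757 CPM in vehicle-treated tumors, 777, 745 and 849 after VCR, 1354, 784 and 1122 after RCM1-NPFA and 823, 834 and 971 after the combination. Pearson's r with this sum was above 0.5 in 3 of the 32 members, near the share of 9.64% among all genes tested outside the list. It was below -0.5 in 16 of the 32 members and in 11.5% of those genes. Of 32 relations with this sum, 3 were positive at an adjusted permutation p under 0.1. They were *Apln* (r = 0.87, adjusted p = 0.0146; rho = 0.74, adjusted p = 0.0628), *Vwf* (r = 0.86, adjusted p = 0.0146; rho = 0.81, adjusted p = 0.0628) and *Esm1* (r = 0.83, adjusted p = 0.0161; rho = 0.55, adjusted p = 0.194). Within groups r was 0.88, 0.80 and 0.87. Without m3 and m7, the tumors farthest from the median of the sum, r fell to 0.61, 0.50 and 0.42, so the relations rest in part on these tumors. The relation of *Dll4* did not pass (r = 0.17, adjusted p = 0.663; rho = 0.23, adjusted p = 0.538). There were 11 negative relations at the same threshold, led by *Aplnr* (r = -0.80, adjusted p = 0.0161; rho = -0.65, adjusted p = 0.135; r = -0.56 without m3 and m7). Of these 11, 2 (*Esam* and *Sox18*) passed by rho as well, and within groups r ran from -0.07 (*Eng*) to -0.68 (*Aplnr*). By edgeR 2 of the 10 genes fell after VCR (7 by DESeq2), *Vegfa*, the main endothelial growth factor, by 0.52 and *Pdk1*, a kinase that limits pyruvate oxidation, by 0.80 on the log2 scale, and all 10 were below 0.

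Muscle fibre transcripts were related to *Cdh5* and *Pecam1*. Of the 14 fibre genes 6 rose after VCR by edgeR and 14 by DESeq2, and by DESeq2 12 rose after RCM1-NPFA and 3 after the combination. Those called by edgeR include the actin *Acta1* and myoglobin *Mb*. The summed CPM was 163, 53.5 and 48.0 in vehicle, 3746, 11902 and 1665 after VCR, 161, 224 and 18387 after RCM1-NPFA and 2213, 4486 and 460 after the combination, and 0 of the 14 genes were at 0 in all tumors of a group. It was related to *Cdh5* (r = 0.76, adjusted p = 0.00837; rho = 0.83, adjusted p = 0.0164; within groups r = 0.58; without m9 and m3 r = 0.73) and to *Pecam1* (r = 0.75, adjusted p = 0.00837; rho = 0.71, adjusted p = 0.0556; within groups r = 0.51; without m9 and m3 r = 0.69). *Gpihbp1*, the capillary lipase anchor, did not pass (r = 0.40, adjusted p = 0.253; rho = 0.10, adjusted p = 0.862). These were 9 relations, of which 2 passed, and the other 6, with adipocyte and mural sums, did not. The part of muscle tissue in the members' values beyond these values was not tested.

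**Figure D5:**
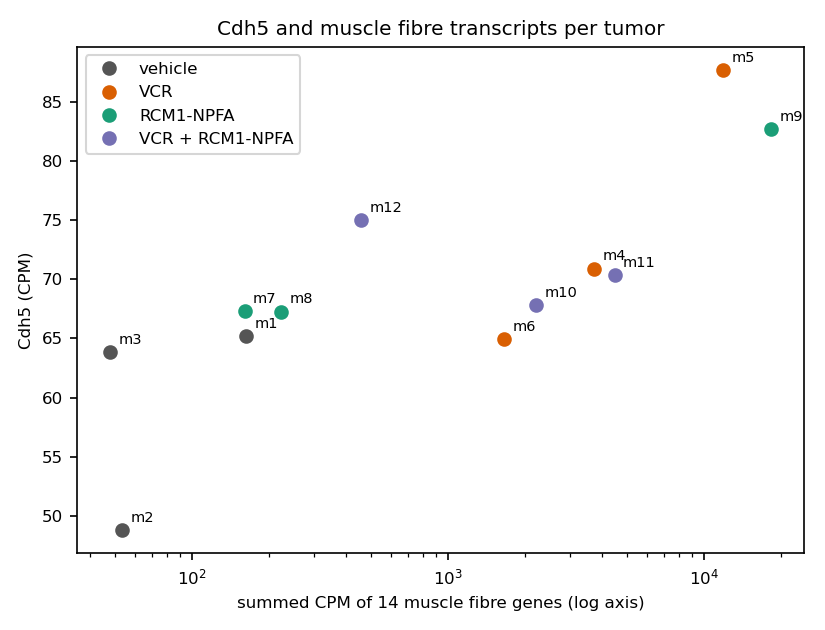
Each point is a tumor, with the summed CPM of 14 muscle fibre genes on a log axis and the CPM of Cdh5 on the vertical axis, colored by group. Tumors m5 and m9 are highest on both axes and m2 is lowest for Cdh5.

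*Flt1* was also read by transcript, since its short form is secreted. Its transcript of 6895 bases spans chr5:147561604-147726011 on the minus strand (GENCODE annotation, GRCm38) in 30 exons and codes for the full receptor of 1333 residues, and its transcript of 6333 bases has 13 exons and codes for 688 residues. The share of *Flt1* TPM from the long coding transcript was 47.3%, 39.6% and 41.3% in vehicle-treated tumors, 58.4%, 62.2% and 52.1% after VCR, 47.1%, 52.0% and 53.9% after RCM1-NPFA and 52.3%, 52.0% and 57.7% after the combination. Vehicle values did not overlap VCR or combination values. The means were 42.7% ± 4.07 (SD, n = 3), 57.5% ± 5.13, 51.0% ± 3.48 and 54.0% ± 3.23, and the two-sided exact permutation p was 0.1, 0.2 and 0.1 for VCR, RCM1-NPFA and the combination, where 0.1 is the smallest p that 3 against 3 allows. For the short coding transcript the means were 50.7% ± 7.49, 40.1% ± 5.81, 47.1% ± 2.92 and 42.5% ± 3.60 (exact permutation p of 0.2, 0.6 and 0.3). Reads shared by the transcripts were divided by kallisto's estimate, which these shares inherit.

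Other genes of vessel growth were taken from lists outside the members. The counts that follow are those of edgeR. Of 13 angiogenic ligands tested after VCR 0 were higher and 1 was lower, *Vegfa*, at 149, 183 and 177 TPM in vehicle and 126, 101 and 118 TPM after VCR (log2 difference -0.52, SE 0.126, adjusted p = 0.0803). After RCM1-NPFA it was at 167, 119 and 141 TPM and after the combination at 128, 113 and 113 TPM, with differences of -0.24 and -0.56 that did not pass in edgeR (adjusted p = 0.567 and 0.668), while DESeq2 called the difference after the combination (adjusted p = 0.0174). Of 15 further tip and sprouting genes 1 rose after VCR, the adhesion molecule *Mcam* by 0.48, and 2 fell, the chemokine receptor *Cxcr4* by 0.47 and the VEGF co-receptor *Nrp2* by 0.47. Of 9 Notch and arterial genes *Jag2*, a Notch ligand, and *Hes1*, a Notch target, rose by 0.61 and 0.47, and the receptor *Notch1* fell by 0.53. Of 8 capillary and lipid genes the homeobox gene *Meox2* and the water channel *Aqp1* rose by 1.07 and 0.57. Of 12 mural genes *Rgs5* and *Ndufa4l2*, both of pericytes, rose by 0.60 and 1.20. *Rgs5* was at 13.6, 12.4 and 10.4 TPM in vehicle and 14.6, 19.97 and 18.4 TPM after VCR, above all vehicle values. Many of these genes are also made by tumor or stromal cells, and none passed in another comparison by edgeR. DESeq2 called *Notch1* lower and *Meox2* and *Rgs5* higher after RCM1-NPFA, and *Notch1* higher and *Meox2*, *Ndufa4l2* and *Rgs5* lower in the interaction.

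No gene passed in edgeR after VCR in the venous (7 tested), lymphatic (4), leukocyte (8), adipocyte (7), keratinocyte (1), platelet (4), erythroid (4) and proliferation (6) lists. DESeq2 called *Vcam1*, an adhesion molecule of inflamed endothelium, and the leukocyte integrin *Itgam* lower and the platelet chemokine *Pf4* higher. Among venous genes *Vcam1* was 0.49 lower without passing in edgeR and *Ackr1* 1.76 higher (adjusted p = 0.201). Median differences were 0.14 for venous, 0.75 for lymphatic, 0.04 for leukocyte, 0.29 for platelet, -0.61 for adipocyte and 0.15 for proliferation genes. The platelet sum was 24.9 to 31.6 CPM in vehicle and 31.0 to 53.8 CPM after VCR, and its part in the *Vwf* values was not tested. Erythroid genes summed to 9.88 to 251 CPM in vehicle-treated tumors and 5.73 to 15.6 CPM in the combination, and keratinocyte genes to 5.04 to 6.52 CPM in all tumors. Adipocyte genes ranged from 0.302 CPM in m3 to 72.8 CPM in m2 and leukocyte genes from 1547 to 2394 CPM.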

How the data were processed

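RNA-seq was performed on 12 Rd76-9 tumors, 3 per group, from poly-A RNA, and the sources name both a stranded kit and non-stranded libraries, so reads of overlapping antisense genes may be included. The authors quantified reads with kallisto against mouse RefSeq transcripts (GRCm38) and deposited estimated counts and TPM for each transcript and tumor. Here 120289 of 120299 transcripts were matched to 38894 genes, and both columns were summed per gene. Estimated counts were rounded. Genes passing filterByExpr (minimum count 10) were fitted in edgeR 4.0.16 (R 4.3.3) with TMM factors, a quasi-likelihood F test on all 4 groups together and Benjamini-Hochberg adjustment over 17599 genes, with a threshold of 0.1. Recovery of known changes was checked on simulated data. DESeq2 1.42.0 and limma 3.58.1 (voom) were alternatives, as were other size factors, filters, length offsets, a robust fit, the groups compared alone, the stricter adjusted p of 0.05 and the omission of single tumors. Terms for muscle fibre and Y-linked transcripts, and the relations with the hypoxia list, were added after the data were seen, as was the share of genes with r past 0.5.

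Correlations used log2(CPM + 0.1) with 100000 two-sided permutations, adjusted within each family, in scipy 1.17.1. The members and the gene lists were chosen with earlier results of these data known. Values in every tumor were given for Pecam1, Cdh5, the tip genes, Kdr, Flt1, Tek, Tie1, each member past the threshold and the 3 members with the largest change in each direction in each comparison with vehicle. Of the other lists (angiogenic ligands, further tip genes, Notch and arterial, venous, lymphatic, capillary and lipid, mural, muscle fibre, adipocyte, leukocyte, keratinocyte, platelet, erythroid, hypoxia and proliferation) mainly called genes were named. Vegfa in the groups where it did not pass, Vcam1, Ackr1, and genes called by DESeq2 alone were added after their values were seen. The labels give no batch. Depth was 29342195 to 32108055 estimated counts per tumor. No 2 libraries agreed within sampling noise. Their disagreement, as chi-square per degree of freedom, had a median of 36.0 over the 12 pairs within a group. Over the 54 pairs from different groups it was 36.8.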

Additional observations from a re-analysis of the deposited data

How the results depend on the processing

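No paired analysis was possible because each tumor has a number of its own and no number is shared between groups. After VCR 10 members were called, and this count was 17 with DESeq2, 4 with only the groups compared, 0 at a threshold of 0.05, 0 with the muscle fibre term and 0 to 13 on leaving out 1 tumor (0 without m2, m4, m5 or m11, 6 without m12). Over all genes 975 of 17599 were called in the main fit, 2214 of 15431 with DESeq2 and 465 of 16870 with only the groups compared. With the muscle fibre term 1 gene passed. The smallest adjusted p of any gene in the main edgeR fit was 0.0485, close to the stricter threshold. Of all genes 0 passed without m2, m4 or m5, 1 without m11 and 243 without m12. The median after VCR was 0.26 with the muscle fibre term, whose values did not overlap between VCR-treated and vehicle-treated tumors. After RCM1-NPFA DESeq2 called 3 members, after the combination DESeq2 on only those groups called 2, and in the interaction DESeq2 called 8, where edgeR called 0. With the muscle fibre term the median was 0.16 after the combination and -0.33 in the interaction. The median of the combination against VCR was -0.22 to 0.021 on leaving out 1 tumor, highest without m5. Directions that turned were those of small changes. For Flt1 after RCM1-NPFA the range on leaving out 1 tumor was -0.11 to 0.33, and it was -0.15 with the muscle fibre term, as it was -0.19 after the combination. After RCM1-NPFA Apln ranged from -0.33 to 0.20 and Esm1 from -0.35 to 0.080, and Dll4 after the combination from -0.044 to 0.27. The cause was not tested. Of the other summary values 370 kept their direction and stayed within 1.5 times the count or the spread between tumors. Counts as low as 36 (Aplnr in m3) limit single members.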
